A study of Mus musculus with 4 samples.

Results

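The Slc6a13 Aldh1a2 leptomeningeal fibroblasts are cells of the thin membranes on the brain surface, recognised here by the transcripts of Slc6a13, a transporter of GABA and taurine, Aldh1a2, the enzyme that makes retinoic acid, and Slc6a20a, a transporter of proline and related amino acids. They were found in single-cell RNA sequencing of the subdural meninges peeled from the mouse cerebellum. The cell filter asked for 500 or more genes, 1000 or more UMIs (unique molecular identifiers, 1 per captured transcript) and no more than 10% mitochondrial UMIs. Barcodes past it with Col1a2 and Dcn both detected and with 0 UMIs of Ptprc, a leukocyte gene, and of Pecam1, an endothelial gene, were taken as fibroblasts. Among these, members had at least 5 UMIs of Slc6a13, Aldh1a2 and Slc6a20a together, and this sum was at least 2 times the sum of Col15a1, Lum and Itih5 and at least 2 times the sum of Ecrg4, Nppc, Slc16a9 and Crispld1. The rule found 2267 members among 62925 barcodes, of which 38722 passed the cell filter and 11285 were fibroblast barcodes. There were 431 and 567 members in NdpWT replicates 1 and 2, and 530 and 739 in NdpKO replicates 1 and 2, the order used for values throughout.

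All mice carried 1 allele of the Neurod2-SmoA1 transgene on a C57/BL6 background, so no library came from mice without it. The Neurod2 promoter drives the transgene in granule neurons of the cerebellum, and its product is a Smoothened protein that passes on the Hedgehog signal without its ligand. The 2 groups were NdpWT, with Ndp intact, and NdpKO, without it. The product of Ndp, norrin, is secreted and binds the Wnt receptor Frizzled4. Each group had 2 libraries, and each library pooled the tissue of 5 cerebella from 3 litters. The sample fields give postnatal days 6 to 8, and the protocol gives postnatal days 7 to 9. Dura and choroid plexus had been set aside at dissection.

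Leptomeningeal fibroblasts form the pia and the arachnoid, lay down collagen and basement membrane around the brain, and secrete growth factors and retinoic acid towards the developing cortex and cerebellum. They carry transporters that clear amino acids, organic anions and neurotransmitters from cerebrospinal fluid, and they are a major source of prostaglandin D synthase (Ptgds), which also binds retinoids and thyroid hormone in that fluid. Retinoic acid, IGF2 and CXCL12 from the meninges are known to act on neural progenitors beneath them.

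Barcodes past the cell filter held 100471447 to 110199328 UMIs per library. NdpKO replicate 1 stood apart in depth. Its members had a median of 29349.5 UMIs, against 18048, 13286 and 16970 in NdpWT replicates 1 and 2 and NdpKO replicate 2. The median mitochondrial share of members was 4.94% and 4.70% in NdpWT and 6.24% and 5.54% in NdpKO. Ndp itself was at the limit of detection in the members, with 3, 0, 0 and 2 UMIs, equal to 0.360, 0, 0 and 0.143 CPM (the UMIs of a gene scaled to a fixed total of UMIs). A count of 0 allows up to 0.359 CPM in NdpWT replicate 2 and 0.182 CPM in NdpKO replicate 1, counting error only. In granule lineage barcodes Ndp was at 3.58 and 2.55 CPM in NdpWT and 1.26 CPM in both NdpKO libraries. The labels do not say which part of Ndp is deleted, so these 3' tags do not check the genotype. Of the 38566 barcode sequences kept, 156 occurred in more than 1 library, 1 of them among the members.

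The members expressed all 5 genes given as markers of this kind of cell. Slc6a13 stood at 1225, 1042, 1114 and 1127 CPM, Aldh1a2 at 801, 669, 761 and 685 CPM, and Slc6a20a at 491, 422, 558 and 552 CPM. These genes chose the cells, and their levels are a description. Ranbp3l, which encodes a nuclear export factor of SMAD proteins and was not part of the rule, was at 481, 441, 548 and 516 CPM. Ptgds, also outside the rule, was at 47999, 41075, 31889 and 56134 CPM, the widest range over libraries of the 5 markers. The library lowest in Ptgds, NdpKO replicate 1, and the highest, NdpKO replicate 2, share a genotype.

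**Figure D1:**
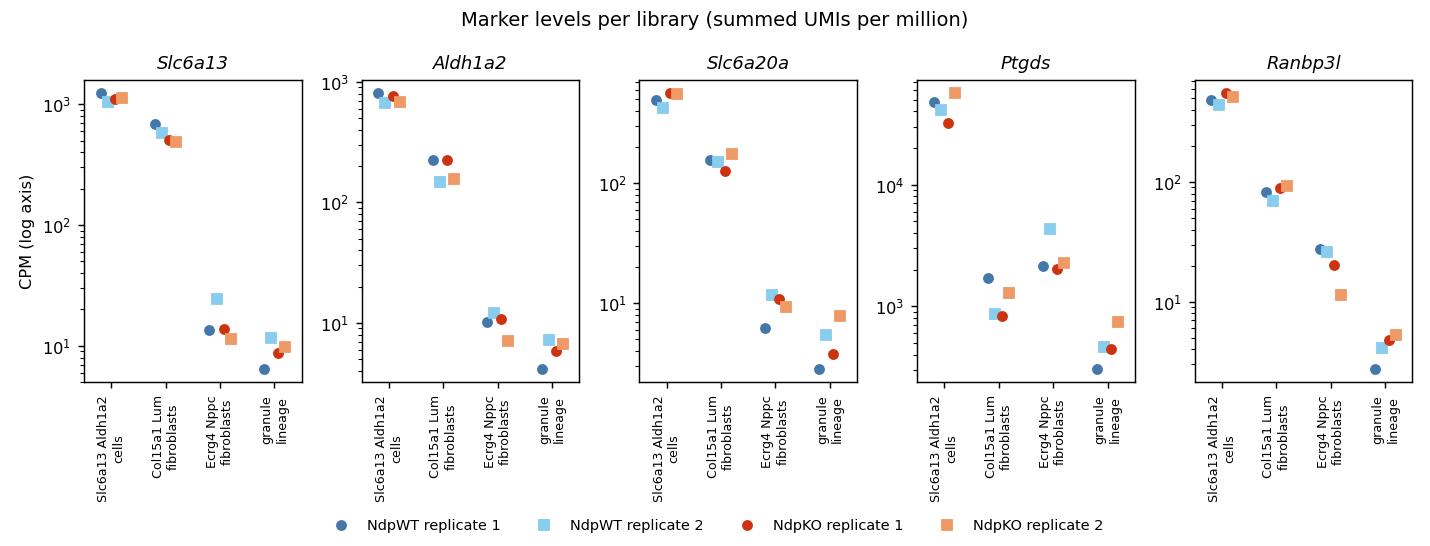
Level of the 5 marker genes in CPM (log axis) in the members, in both other fibroblast kinds and in granule lineage barcodes, 1 point per library. Slc6a13 ran from 1042 to 1225 CPM in the members and from 488 to 688 CPM in the Col15a1 Lum fibroblasts, while Ptgds in the members lay at 31889 CPM or more.

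The same rule with the 3 gene sums exchanged gave 2 other fibroblast kinds for comparison, 1626 Col15a1 Lum Itih5 fibroblasts and 1316 Ecrg4 Nppc fibroblasts. Slc6a13 was not absent from the Col15a1 Lum Itih5 kind, with 688, 581, 508 and 488 CPM, and Aldh1a2 was there at 226, 148, 226 and 157 CPM. In the Ecrg4 Nppc kind, Slc6a13 was at 13.4, 24.4, 13.7 and 11.3 CPM, close to the 6.48, 11.6, 8.80 and 9.74 CPM of granule lineage barcodes. In Slc6a13 and Aldh1a2 the members are thus separated from the Col15a1 Lum Itih5 kind by the ratio the rule sets. Outside the rule, Ptgds was at 1716, 863, 824 and 1281 CPM in that kind. Ranbp3l was at 81.9, 69.6, 89.7 and 92.5 CPM there. Both genes were below the members in every library. Between 457 and 1270 fibroblast barcodes per library had at least 5 UMIs of the 3 genes and failed a ratio. At the threshold itself, 6, 11, 17 and 19 barcodes had a sum of exactly 5 UMIs and were taken, and 5, 12, 14 and 30 with a sum of 4 were left out. The median sum of the members was 44, 27, 65.5 and 39 UMIs.

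Among the members all 3 genes of the rule were detected in 94.2%, 89.8%, 92.6% and 94.0% of barcodes. Slc6a13 made up 45.8% to 48.9% of the sum, Aldh1a2 29.0% to 31.8%, and Slc6a20a 19.5% to 23.4%. Every barcode was also thinned to 4000 UMIs so that shares could be read at equal depth, which left out 17, 22, 49 and 51 members below that depth. After thinning, Slc6a13 had a UMI in 95.4%, 93.8%, 96.5% and 95.8% of members, against 98.8%, 99.6%, 100% and 99.3% before. Granule lineage barcodes, which should lack the gene, had it in 2.2%, 4.2%, 4% and 2.8% after thinning. Free RNA was far higher for Ptgds, detected after thinning in 92.5% to 95.5% of members and in 63.4%, 76.4%, 73.4% and 86.2% of granule lineage barcodes. A UMI of Ptgds therefore does not mark a member, whereas its CPM in members exceeded that of granule lineage barcodes in every library (306, 459, 441 and 747 CPM).

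Genes outside the rule that were highest in members relative to both other kinds, their UMIs pooled, are given as a description, since the cells were chosen on the same counts. The mix in the pool differed between libraries. The Col15a1 Lum Itih5 and Ecrg4 Nppc kinds gave 9638228 and 4188845 UMIs in NdpWT replicate 2, and 4156092 and 12365640 in NdpKO replicate 1. By the mean over libraries of the log2 ratio of CPM + 1, Serpind1, which encodes the thrombin inhibitor heparin cofactor II, led with 5.07. Its level was 159.8, 113, 165 and 154 CPM in the members and 1.29, 4.77, 4.36 and 4.22 CPM in the other kinds. Of the 20 highest genes, 7 encode transporters or channels. Slc22a2, an organic cation transporter, had a ratio of 4.57, Slc13a3 and Slc13a4, carriers of dicarboxylates and of sulfate, had 3.79 and 3.59, and Slc6a12, a betaine and GABA transporter, had 3.44. Slco1a4, an organic anion transporter, had 3.29, Slc2a12, a glucose transporter, had 3.15, and Kcnj13, the potassium channel Kir7.1, had 3.62. Signalling was represented by Wnt6, a Wnt ligand, at 4.33 (251, 286, 242 and 262 CPM), by Igfbp3, a binding protein of insulin-like growth factors, at 3.31, and by Mapk4, an atypical MAP kinase, at 3.46. Cyp26b1, which breaks down retinoic acid, had a ratio of 4.10, so the member sums held transcripts for making retinoic acid and for clearing it. Ptgds stood at 4.56 and Nnat, an imprinted gene for a small membrane proteolipid, at 4.08. The remaining 6 of the 20 were Dcdc2a (4.03), Klhdc8a (3.61), Col9a2, a chain of collagen IX (3.42), Ranbp3l (3.33), C2, a complement protease precursor (2.99), and Try5 (2.96).

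The genes lowest in members by the same ratio included matrix and cell surface genes. Mgp, an inhibitor of calcification, had a ratio of -5.26, with 99.7, 173, 67.7 and 115 CPM in members against 4257, 2806, 6007 and 4123 CPM in the other kinds. Fxyd5, a regulator of the sodium pump, had -4.19, Ccn3, a matricellular protein, -3.63, Tgfbi, a matrix protein, -3.41, and F3, tissue factor, -3.13. Mfap2, a microfibril protein, had -3.12 and Eln, elastin, -2.72. These 7 genes were picked after their values were seen. For Mgp the share of members with a UMI after thinning, 21%, 28.3%, 15.8% and 23.1%, stood beside 16.0%, 27.8%, 16.6% and 19.4% of granule lineage barcodes. In CPM the members were above the granule lineage barcodes in every library (49.1, 80.0, 39.9 and 61.1 CPM in the latter). Slc6a13, Aldh1a2, Slc6a20a, Wnt6, Serpind1, Nnat and Aspn overlap genes on the opposite strand. The sources used here do not state the counting strand, so whether the counts keep such pairs apart was not checked.

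By variance over mean, members differed from each other most in haemoglobin and in Ptgds. Among 1088 genes ranked by the Fano factor (variance over mean across members at 4000 UMIs, median over libraries), the median gene had 1.15. Hbb-bs, a beta globin, had 741, and Ptgds had 341. Next among genes that are neither globins nor nuclear or ribosomal RNA were Igfbp6 at 13.5, Igfbp5 at 10.4, S100a6, a calcium-binding protein, at 9.52, Igfbp2 at 8.75, Ptn, the growth factor pleiotrophin, at 8.69, Vim, the intermediate filament protein vimentin, at 8.57, and Nnat at 8.34. Ptgds therefore varied among the cells of 1 library as well as between libraries. The Fano factor can rise with the level of a gene. Ptgds had a mean of 108 to 190 UMIs per member at 4000 UMIs, and Igfbp6 1.35 to 2.93. A summed count of at least 2 UMIs of Mki67 and Top2a, genes of dividing cells, was present in 10.7%, 14.1%, 14.5% and 13.4% of members. At 4000 UMIs it was 5.31%, 6.42%, 5.41% and 6.69%, against 27.4% to 45.4% of granule lineage barcodes, so the libraries of both genotypes overlapped.

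The share of members among fibroblast barcodes was 22.3% and 14.8% in NdpWT and 26.9% and 20.8% in NdpKO. The genotypes overlapped. The means were 18.6% ± 5.34 (SD, n = 2) and 23.9% ± 4.35 (SD, n = 2), a difference of 5.31 percentage points (two-sided exact permutation test, p = 0.667). With 2 libraries against 2 this test cannot go below 0.333. The difference was 9.09 or 1.54 points with NdpWT replicate 1 or 2 left out, and 2.24 or 8.39 points with NdpKO replicate 1 or 2 left out. Since the rule counts UMIs, the share was also taken after thinning to 4000 UMIs. It was then 26.0% and 19.4% in NdpWT against 32.9% and 29.0% in NdpKO, with no overlap and a difference of 8.26 points (exact permutation p = 0.333). The denominator changed as well, since barcodes under 4000 UMIs, or left without Col1a2 or Dcn, dropped out. Fibroblast barcodes numbered 1468, 2499, 1300 and 2175 after thinning, against 1930, 3835, 1967 and 3553 before. Members after thinning numbered 381, 485, 428 and 630. The difference in share moved with the mitochondrial filter. At a limit of 5% mitochondrial UMIs the shares were 15.9% and 10.3% in NdpWT and 14.7% and 12% in NdpKO, a difference of 0.245 points (exact permutation p = 1). As a share of all barcodes past the filter the members made up 4.62% and 4.42% in NdpWT and 9.30% and 6.79% in NdpKO. This is a difference of 3.52 points (exact permutation p = 0.333). Barcodes past the filter numbered 9320, 12818, 5696 and 10888. Fibroblast barcodes as a whole also made up more of them in both NdpKO libraries than in both NdpWT libraries.

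**Figure D2:**
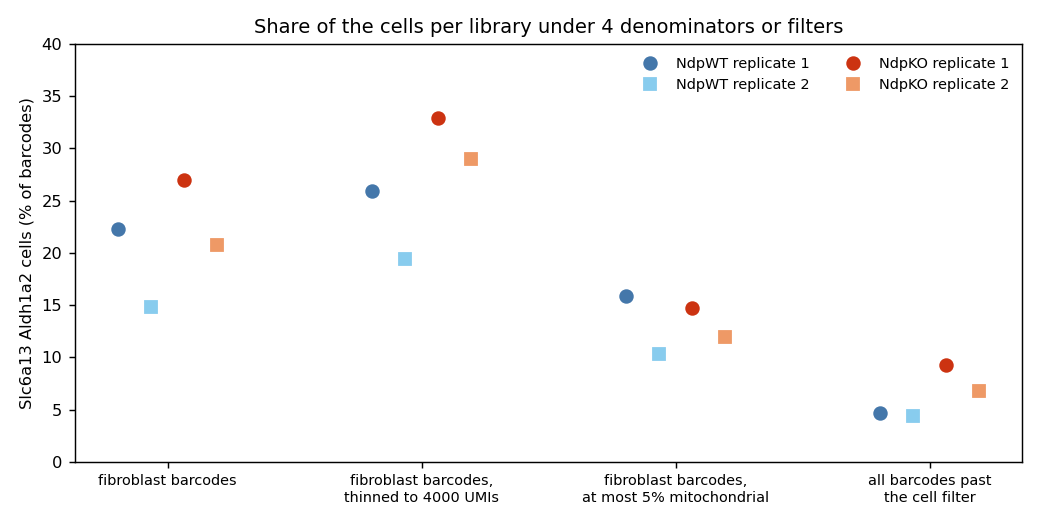
Share of the members per library (% of barcodes, 1 point per library) under 4 denominators or filters. The genotypes overlapped among fibroblast barcodes (14.8% to 22.3% and 20.8% to 26.9%) and at the 5% mitochondrial limit, and did not overlap after thinning or over all barcodes past the filter.

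Knockout was compared with wild type on UMI counts summed over the members of each library, with edgeR's quasi-likelihood test and Benjamini-Hochberg adjustment over 13933 genes outside the membership rule. At an adjusted p of 0.05 the amino acid transporter gene Slc7a8 rose and the myelin gene Mag fell, which is 0.00718% of the genes tested in each direction. At an unadjusted p of 0.05, 426 genes (3.06%) were higher and 447 (3.21%) were lower in NdpKO. In simulated counts of 13931 genes, the same test recovered 22.4% of genes changed 1.5-fold, 71.6% of those changed 2-fold and 98.5% of those changed 4-fold. It also called 5 unchanged genes. All genes were simulated with 1 common dispersion (0.0179), without the gene-to-gene spread of the data. These shares therefore do not measure what the test finds in the real counts. In the real counts, the number of calls depended on the libraries. It was 8 rose and 36 fell without NdpWT replicate 1, 2 and 22 without NdpWT replicate 2, 1 and 0 without NdpKO replicate 1, and 1 and 7 without NdpKO replicate 2. In the genotype comparison CPM are scaled by TMM, a correction for library composition.

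Slc7a8 (chr14:54722209-54781946, minus strand, mm10) encodes LAT2, a light chain that exchanges neutral amino acids across the membrane together with Slc3a2. Its 38, 40, 283 and 232 UMIs in the members gave 4.58, 4.73, 17.3 and 16.6 CPM, so both NdpKO libraries lay above both NdpWT libraries. The log2 change was 1.86 ± 0.20 (SE; edgeR adjusted p = 0.0178). The UMIs were spread over many cells. Members with a UMI made up 7.89%, 6.70%, 30.4% and 21.7%, and no barcode held more than 9 of them. At equal depth the shares were 2.17%, 1.83%, 6.86% and 6.69%, against 2.40%, 0.200%, 1.80% and 1.20% of granule lineage barcodes. In NdpWT replicate 1 the share was thus at the level of background. In NdpWT replicate 2 it was above, and its exact binomial 95% interval (0.883% to 3.35%) overlapped that of the granule lineage barcodes (0.00506% to 1.11%). Slc7a8 was also higher in NdpKO in the other kinds, with 2.97, 7.16, 16.8 and 18.2 CPM in the Col15a1 Lum Itih5 fibroblasts and 10.3, 7.88, 19.3 and 22.3 CPM in the Ecrg4 Nppc fibroblasts (plain CPM, no TMM). Its direction held in all 17 alternatives, with a log2 change of 1.46 to 2.03. These reuse the same libraries, which did not overlap between genotypes, so the direction could hardly change. The call was lost without NdpKO replicate 1 (edgeR adjusted p = 0.0738), at a ratio of 4 in the membership rule (0.0708), at the 5% mitochondrial limit (0.0698), without the barcodes of highest doublet score (0.118) and in members with 0 UMIs of 6 genes of other cell types (0.201).

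Mag (chr7:30899176-30914873, minus strand, mm10) encodes myelin-associated glycoprotein, an adhesion molecule of oligodendrocytes. It had 96, 188, 7 and 4 UMIs, or 11.6, 22.2, 0.428 and 0.287 CPM, a log2 change of -5.50 ± 0.45 (SE; edgeR adjusted p = 0.00930). Of its UMIs, 86 of 96 in NdpWT replicate 1 and 180 of 188 in NdpWT replicate 2 lay in a single barcode of each library. Mbp, myelin basic protein, was less concentrated in NdpWT replicate 1, where 1 barcode held 37.7% and 97 members had a UMI. Over Mag and 5 further myelin genes, the highest barcode carried 721 UMIs (57.5% of the library's) in NdpWT replicate 1 and 3217 (90.8%) in NdpWT replicate 2. Barcodes with at least 10 myelin UMIs numbered 2, 1, 2 and 0. Without them Mag had a log2 change of -1.55 and was not called (edgeR adjusted p = 0.775), and Slc7a8 was still called (0.0303). The call of Mag was also lost without NdpKO replicate 1 (0.0738). Of 8 oligodendrocyte markers tested, 7 were below both NdpWT libraries in both NdpKO libraries, and the eighth, Pdgfra, which fibroblasts also express, was at 252, 225, 297 and 228 CPM.

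The 10 genes next in order of p did not pass the threshold, and all are given by their values. Tent5a, which encodes a poly(A) polymerase, was at 31.0, 30.5, 10.7 and 13.6 CPM, a log2 difference of -1.34 ± 0.17 (SE; edgeR adjusted p = 0.0519). It passed in 11 of 17 alternatives, among them DESeq2 and library totals in place of TMM. Neat1, a long noncoding RNA of nuclear paraspeckles, was at 71.1, 63.5, 18.0 and 27.7 CPM (log2 -1.56 ± 0.20 SE, edgeR adjusted p = 0.0895) and passed in 10 of 17. Both genes were below both NdpWT libraries in both NdpKO libraries, with their UMIs spread over 13.9% to 40.1% of members. Neat1 was also lower in NdpKO in the Col15a1 Lum Itih5 fibroblasts (47.0, 50.4, 17.1 and 24.3 plain CPM). The same held in the Ecrg4 Nppc fibroblasts (139, 164, 68.7 and 106 plain CPM). Tent5a was lower in the former (72.1, 68.1, 41.4 and 45.9 plain CPM) and overlapped in the latter (12.3, 15.3, 16.9 and 5.81 plain CPM). Klf4, a transcription factor, was at 232, 167, 107 and 100.1 CPM (log2 -0.95 ± 0.16 SE, edgeR adjusted p = 0.230). It passed in 5 of 17 alternatives. S100a6 was at 492, 656, 304 and 314 CPM with an adjusted p of 0.230 by edgeR and passed in 4. Tmem158, the only gene of the 10 higher in NdpKO, was at 77.6, 78.5, 125.8 and 132.9 CPM (edgeR adjusted p = 0.221) and passed in 3. In plain CPM it was also higher in NdpKO in the Col15a1 Lum Itih5 fibroblasts (26.2, 28.7, 40.2 and 38.6). The Ecrg4 Nppc fibroblasts had 70.9, 88.3, 94.4 and 111 plain CPM. Enpp1, which makes extracellular pyrophosphate, Pla2g7, which degrades platelet-activating factor, and Luzp2 had log2 differences of -0.86, -1.23 and -1.34 and passed in 3, 1 and 1. Mbp and Tspan2 were the remaining genes. In NdpWT replicates 1 and 2, 1 barcode held 37.7% and 83.7% of the Mbp UMIs and 72.2% and 86.3% of the Tspan2 UMIs.

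**Figure D3:**
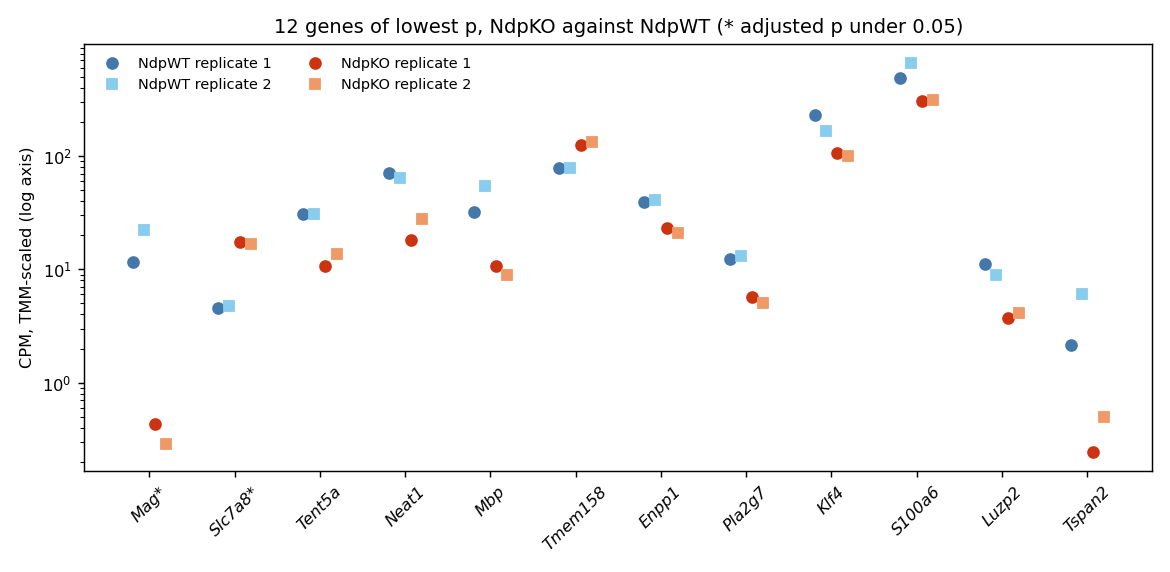
TMM-scaled CPM (log axis) of the 12 genes of lowest p in the members, 1 point per library, with an asterisk where the edgeR adjusted p was under 0.05. Slc7a8 lay near 4.58 and 4.73 CPM in NdpWT and 17.3 and 16.6 CPM in NdpKO, and 10 of the 12 genes were lower in both NdpKO libraries.

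Gene lists were read by how many of their tested genes had both NdpKO libraries above, or both below, both NdpWT libraries. Over all genes tested, 17.7% were above and 18.1% were below by this count, and the median log2 difference was 0.00084. Apart from Mag, 0 genes of any list passed the threshold of edgeR's test. The counts below are therefore descriptions of level, with edgeR p-values where they are given. Slc22a8, Axin2, Fzd4, Tspan12, Wif1, Rspo3, Gli1, Igfbp4, Igfbp5, Ebf1 and Lbp are named outside the rule for named genes, after their values were seen.

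Transporters, the defining equipment of these cells, had 8 of 30 genes above and 6 below, with a median of 0.03 on the log2 scale. Slc22a6, an organic anion transporter, was at 374, 293, 382 and 386 CPM, and Slc7a11, the cystine and glutamate exchanger, at 875, 974, 919.9 and 949 CPM. The sulfate carrier Slc13a4 was at 243, 235, 333 and 350.3 CPM (log2 0.52 ± 0.12 SE, edgeR unadjusted p = 0.00162, adjusted 0.364), without overlap. Slc22a8, another organic anion transporter, was at 106, 91.2, 124 and 162 CPM (log2 0.54 ± 0.15 SE, edgeR adjusted p = 0.530). Of the genes of retinoic acid synthesis and response, 4 of 17 were above and 2 below. Rbp4, which encodes the plasma retinol carrier, was at 482, 519.6, 535 and 539 CPM and differed by 0.10 on the log2 scale. Cyp26b1 was at 76.2, 57.5, 109.7 and 76.8 CPM, with both NdpKO libraries above both NdpWT libraries by a narrow margin.

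Of the Wnt and norrin pathway, 6 of 37 genes were above and 11 below, a median of -0.06. Among the ligands, Wnt4 was at 409, 395, 294 and 359 CPM, Wnt6 at 252, 282, 244 and 264 CPM, and Wnt5a at 174, 145, 149 and 139 CPM. The receptor of norrin, Fzd4, was low at 5.06, 6.62, 6.54 and 7.31 CPM, and its partner Tspan12 was at 5.06, 5.08, 3.55 and 2.94 CPM. Fzd4 had 42, 56, 107 and 102 UMIs in all members of a library, and the Ecrg4 Nppc fibroblasts had more, 34.6, 30.3, 44.6 and 33.6 CPM. Axin2, a target of Wnt signals through beta-catenin, was at 66.9, 52.7, 61.9 and 48.4 CPM, where the libraries of both genotypes overlapped. Wif1, a secreted Wnt inhibitor, was at 20.4, 24.7, 12.9 and 12.9 CPM, and Rspo3, an enhancer of Wnt signals, at 8.07, 7.33, 2.08 and 3.94 CPM. Neither passed the threshold (edgeR adjusted p = 0.296 and 0.364).

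The Hedgehog pathway had 1 of 11 genes above and 3 below. The receptor Ptch1, itself a target of the pathway, was at 50.4, 47.6, 42.3 and 44.7 CPM, Smo, its signalling partner, at 55.4, 66.3, 67.4 and 60.8 CPM, and the effector Gli1 at 5.30, 6.38, 6.54 and 4.16 CPM. The activated Smo transgene transcript was not separated from Smo in these counts. BMP and TGF-beta signalling had 4 of 31 genes above and 6 below. Bmp7 and Bmp6, ligands of that family, were at 240, 213, 305 and 230 CPM and at 173, 137, 188 and 163 CPM.

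The IGF system and imprinted growth genes had 9 of 25 genes above and 1 below, a median of 0.19. Igf2, the growth factor itself, did not separate the genotypes, with 5631, 4298, 6120.3 and 4306 CPM. Among its binding proteins, Igfbp5 was at 318, 334, 495 and 536 CPM (log2 0.66 ± 0.13 SE, edgeR unadjusted p = 0.000367, adjusted 0.256), and Igfbp4 at 379.6, 366, 502 and 489.9 CPM (log2 0.41 ± 0.12 SE, edgeR adjusted p = 0.564). Igfbp3 was at 119, 131, 182 and 162 CPM (log2 0.46 ± 0.13 SE, edgeR adjusted p = 0.488). The imprinted Nnat was at 1851, 1266, 2626 and 2871 CPM (log2 0.82 ± 0.19 SE, edgeR adjusted p = 0.335). Igfbp2 was at 2316, 2008, 2442 and 2487 CPM, a smaller log2 difference of 0.19 (edgeR adjusted p = 0.872). In these 5 genes both NdpKO libraries lay above both NdpWT libraries. Secreted growth and guidance factors had 7 of 35 above and 9 below. Ptn was at 9923, 9965, 7924 and 9652 CPM, its relative Mdk at 683, 686, 918 and 875 CPM, and the chemokine Cxcl12 at 689, 483, 647 and 576 CPM.

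Fibrillar and other collagens had 3 of 21 above and 5 below, with Col3a1 at 2179, 2651, 2693 and 2028 CPM and Col1a1 at 1548, 1200.0, 1666 and 1126 CPM. Basement membrane genes had 0 of 22 above and 4 below, and Nid1, which links laminin to collagen IV, was at 492, 550.2, 584 and 479.5 CPM. Proteoglycans and elastic fibre genes had 8 of 36 above and 6 below. Prostaglandin and lipid handling had 4 of 25 above and 2 below. Ptgds did not separate the genotypes (48212, 40569, 32149 and 56464 CPM, with an SE of 0.26 on the log2 scale), nor did Apoe, the lipid carrier, at 4496, 6285, 5625 and 5853 CPM.

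Meningeal transcription factors had 0 of 32 above and 12 below, with a median of -0.06. Most of the 12 were small differences. Foxd1, a forkhead factor, was at 494, 478, 379 and 453 CPM, and Zic1, a cerebellar and meningeal zinc finger factor, at 364, 358, 353 and 334 CPM. Foxc1, needed for meningeal development, was at 288, 299, 349 and 295 CPM, with overlap. Klf4 and Ebf1 had the lowest p of the list, and Ebf1 was at 162, 146, 100.2 and 107 CPM (log2 -0.57 ± 0.13 SE, edgeR adjusted p = 0.327). Complement and immune mediators had 3 of 18 above and 6 below, with Lbp, which binds lipopolysaccharide, at 68.0, 93.2, 33.9 and 47.8 CPM. Interferon and MHC class I genes had 4 of 35 above and 4 below. Genes of the cell cycle had 2 of 33 above and 8 below, and those of hypoxia and glycolysis 4 of 23 above and 2 below.

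Immediate early and dissociation stress genes, which cells switch on during tissue digestion, stood at 0 of 34 above and 20 below, with a median log2 difference of -0.38. Of the 34, 12 were lower at an unadjusted p of 0.05 and 0 were higher. Jun was at 1364, 862, 588 and 767 CPM (log2 -0.72 ± 0.23 SE, edgeR adjusted p = 0.666) and Jund at 1191, 901, 556 and 780.3 CPM (log2 -0.65 ± 0.20 SE, edgeR adjusted p = 0.588). Fos was at 1892, 746, 828 and 794 CPM, so that NdpWT replicate 1 alone stood high. Among the chaperones of the list the genotypes overlapped for Hspa8 (978, 996, 964 and 1024 CPM) and for Hsp90aa1 (472, 709, 574 and 627 CPM). The libraries came from 4 separate runs, and run and library cannot be told apart, so the part of dissociation in the genotype differences was not tested.

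**Figure D4:**
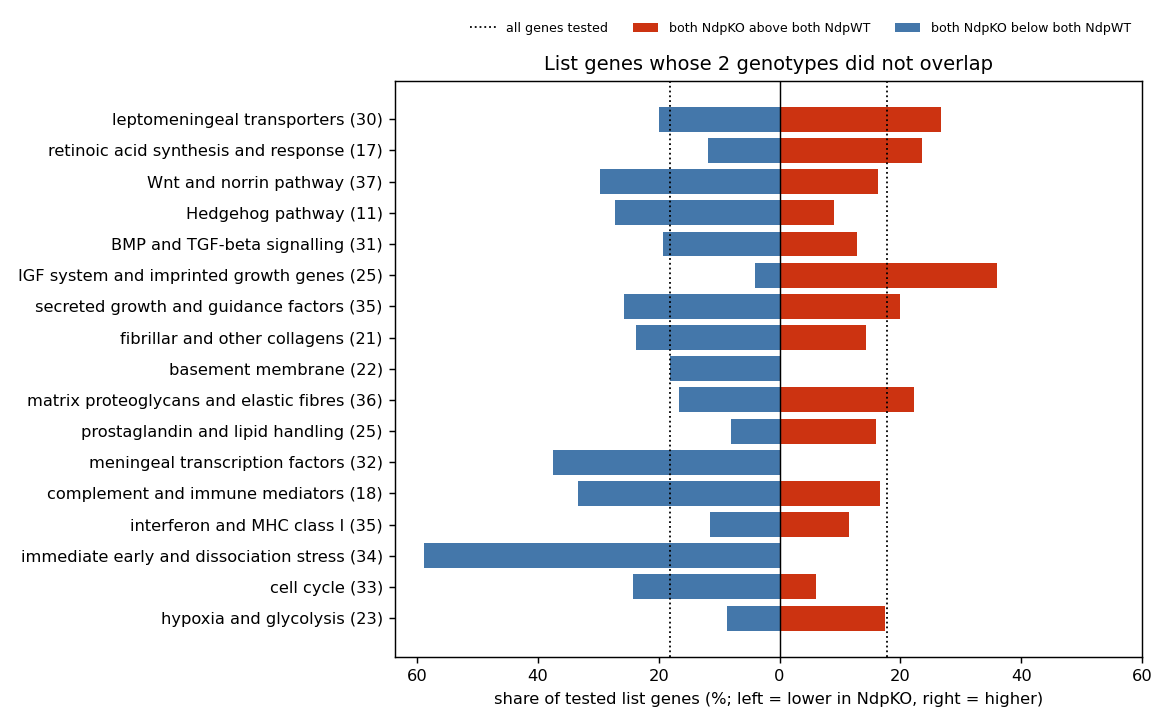
Share of the tested genes of each list (number in brackets) whose NdpKO libraries both lay above (right) or both below (left) the NdpWT libraries, in %. Dotted lines give all genes tested, 17.7% above and 18.1% below. Immediate early and dissociation stress genes reach furthest to the left (20 of 34), and the IGF system and imprinted growth genes furthest to the right (9 of 25).

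Transcripts of other cell types were present in the members and moved between libraries. Summed erythroid markers (8 genes, led by Hbb-bs) stood at 7993, 10863, 14538 and 3576 CPM, and 0 of the 8 markers separated the genotypes. Markers of macrophages and microglia (9 without Ptprc, which the rule set to 0) summed to 83.4, 95.5, 76.6 and 50.2 CPM, and 4 of 9 tested were below. Granule neuron lineage markers summed to 319, 176, 158 and 245 CPM, with 0 of 10 above or below. Endothelial markers (9 without Pecam1) summed to 264, 280.3, 322 and 222 CPM and were led by Cdh5. Arachnoid barrier markers were led by Alcam, dural fibroblast markers and astroglial markers by Gja1, mural markers by Vtn and choroid plexus markers by Enpp2, all of them genes at 500 CPM or more in every member sum. No list had a marker at 0 in all libraries. Apart from the myelin barcodes above, the part of other cells in the genotype differences was not tested barcode by barcode. With 0 UMIs of 6 genes of other cell types required, 119, 207, 273 and 314 members were left, and 0 genes were called. Slc7a8 kept a log2 change of 1.46 there. Whether calls were lost to the smaller number of members or to the transcripts of other cells was not tested.

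Whether a genotype effect in the members differed from that in the other fibroblast kinds was tested as an interaction, with library as a block. The effect in members was set against the mean effect in both other kinds. Of 14725 genes, 6 (0.0407%) passed an edgeR adjusted p of 0.05, and 876 (5.95%) had an unadjusted p under 0.05. Leaving out NdpWT replicate 1 or 2 gave 11 or 4 genes, and leaving out NdpKO replicate 1 or 2 gave 22 or 23. Plain CPM are given for these genes.

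Aspn (chr13:49544443-49567565, plus strand, mm10) encodes asporin, a small proteoglycan that binds collagen and TGF-beta. It was at 3.24, 7.18, 1.33 and 2.14 CPM in the members, lower in NdpKO, and at 1.05, 4.67, 6.98 and 11.2 CPM in the Col15a1 Lum Itih5 fibroblasts, higher in NdpKO. The difference of effects was -2.42 ± 0.29 on the log2 scale (SE; edgeR adjusted p = 0.00503), and it was called in 7 of 7 alternatives. The member level rests on 27, 60, 22 and 30 UMIs. Granule lineage barcodes had 0.996, 2.13, 1.26 and 1.66 CPM, so the NdpKO members were near that level. The Ecrg4 Nppc fibroblasts, where Aspn is highest (60.2, 104, 75.0 and 114 CPM), had overlapping genotypes.

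Klf4 was at 231, 169, 106 and 99.5 CPM in the members, 113, 97.1, 107 and 100.0 CPM in the Col15a1 Lum Itih5 fibroblasts, and 337, 314, 247 and 263 CPM in the Ecrg4 Nppc fibroblasts. The difference of effects was -0.72 ± 0.10 (SE; edgeR adjusted p = 0.0268), called in 6 of 7 alternatives and lost without NdpWT replicate 1 (adjusted p = 0.163). Klf4 lay below both NdpWT libraries in both NdpKO libraries in the members and in the Ecrg4 Nppc kind, and overlapped between genotypes in the Col15a1 Lum Itih5 kind. Klf4 is itself a gene that tissue digestion raises. In the same member sums 20 of 34 immediate early and dissociation stress genes lay below in NdpKO without overlap, 0 of them past the threshold, and their part in the Klf4 difference was not tested.

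The other 4 genes were less stable. Fam180a was at 24.7, 15.1, 32.7 and 45.5 CPM in the members and at 27.4, 21.9, 18.5 and 19.1 CPM in the Col15a1 Lum Itih5 fibroblasts, a difference of effects of 1.28 ± 0.19 (SE; edgeR adjusted p = 0.0446). It was called in 4 of 7 alternatives. A2m, the protease inhibitor alpha-2-macroglobulin, overlapped between genotypes in the members (152, 104, 137 and 106 CPM), and the difference of 0.98 ± 0.15 (SE; edgeR adjusted p = 0.0350) rests on the Ecrg4 Nppc fibroblasts (12.1, 6.92, 3.96 and 1.38 CPM). Cnn1, the smooth muscle protein calponin, likewise had 1.68, 2.99, 1.70 and 1.21 CPM in members and 0.175, 0.830, 9.62 and 13.2 CPM in the Col15a1 Lum Itih5 fibroblasts (difference -3.54 ± 0.58 SE, edgeR adjusted p = 0.0480). Slc9a3r1, a scaffold protein that anchors transporters in the membrane, was at 127, 120.1, 171 and 164 CPM in members and without a common direction elsewhere (difference 0.66 ± 0.11 SE, edgeR adjusted p = 0.0480). The calls of all 4 were lost without NdpWT replicate 1 (edgeR adjusted p = 0.0564 to 0.489), without NdpWT replicate 2 (0.100 to 0.299) and with library totals in place of TMM (0.0553 to 0.0877). Those of Cnn1 and Slc9a3r1 were also lost without NdpKO replicate 1, and those of A2m, Cnn1 and Slc9a3r1 with DESeq2. In the Ecrg4 Nppc fibroblasts, choroid plexus markers summed to 1668, 7479.6, 57.0 and 52.3 CPM, led by Ttr, and their part in these differences was not tested. Fam174b, Enpp1 and Plce1 came next in order of p and did not pass (edgeR adjusted p = 0.0590 to 0.0795).

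**Figure D5:**
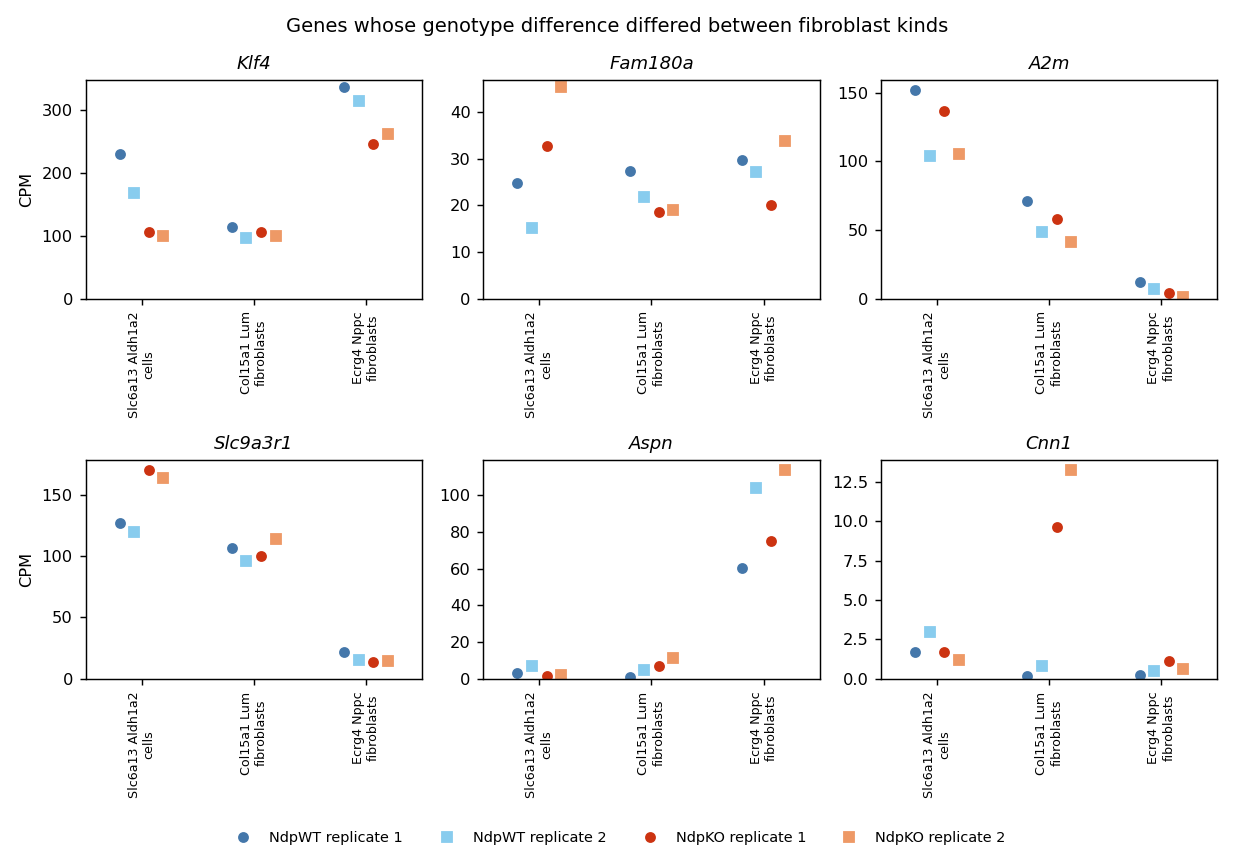
Plain CPM of the 6 genes whose genotype effect in the members differed from that in the other fibroblast kinds, 1 point per library and kind. Klf4 in the members was at 231 and 169 CPM in NdpWT and 106 and 99.5 CPM in NdpKO, with overlap in the Col15a1 Lum fibroblasts, while Aspn and Cnn1 were higher in NdpKO in the Col15a1 Lum fibroblasts and not in the members.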

How the data were processed

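The files hold UMI counts per gene and barcode, 1 sparse matrix per library, deposited by the authors without normalization. Cell Ranger 6.1.2 and mm10 are named in the submitters' processing notes. The libraries were made with the 10x Genomics 3' kit, per the labels' protocols. The sources used here do not say whether free RNA or doublets had been removed. Of 32285 features, 32235 matched GENCODE M21 (the mm10 assembly), which gave the positions. The members were taken by the rule in the report, and the members and the gene lists were chosen with earlier results of these data known.

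Counts were summed per library over the members, since cells are not replicates. NdpKO was compared with NdpWT by edgeR 4.0.16 under R 4.3.3 (quasi-likelihood, robust, TMM, filterByExpr at min.count 10), adjusted by Benjamini-Hochberg at a threshold of 0.05. No test is given for the 14 genes of the membership rule. The interaction used sums of 3 kinds of fibroblast with library as a block (residual df 4). P-values rest on 2 libraries a group, each a pool of separate animals, and no 2 libraries agreed within sampling noise (chi-square over its degrees of freedom 13.2 to 29.3). Granule lineage barcodes had at least 3 UMIs of Neurod1, Barhl1 and Cntn2 and 0 of Col1a2, Dcn, Ptprc and Pecam1. Their thinned shares are from 500 barcodes per library. No barcode was removed as a doublet in the main result. Scrublet (scanpy 1.11.5) marked 241, 257, 3 and 152 kept barcodes, which is 0.0527% in NdpKO replicate 1, where its automatic threshold failed. Its calls, and then the highest scores, were left out as alternatives.

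Named genes were those past the threshold, the 10 next by p, the 6 of highest CPM in each list, the marker genes and the 20 of highest ratio to the other kinds. A few of them are not reported here. The tests were tried on simulated counts. At 14294 genes the interaction test recovered 7.46%, 55.2% and 92.4% of genes whose effect differed 1.5-fold, 2-fold and 4-fold. It called 1 unchanged gene. Here too all genes had the same common dispersion (0.0179), unlike the data. Alternatives were DESeq2 1.42.0, library totals, no filter, a replicate block, other limits of the membership rule, the mitochondrial limit, and leaving out each library. Intervals and limits of 0 counts (3 counts) cover counting error only.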

Additional observations from a re-analysis of the deposited data

Results flagged for a closer look

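The genotype effect of 6 genes differed between the members and both other fibroblast kinds by the edgeR interaction test, as described above. The differences of the log2 effects were -2.42 for Aspn, -0.72 for Klf4, 0.98 for A2m, 1.28 for Fam180a, -3.54 for Cnn1 and 0.66 for Slc9a3r1. Aspn and Klf4 kept the call in 7 and 6 of 7 alternatives, Fam180a in 4, A2m in 3, and Cnn1 and Slc9a3r1 in 2 each. For Cnn1 and A2m the difference lay in the other kinds rather than in the members.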

How the results depend on the processing

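The direction of the 12 genes of lowest p in the genotype comparison held in all alternatives that gave a value. So did that of the 10 of lowest p in the interaction. All were picked by low p in the same libraries that the alternatives reuse. In each of the 12, both NdpKO libraries lay outside the range of NdpWT, so leaving out a library could hardly reverse it. The held direction is therefore no independent support. Other named genes were not rerun under each alternative. The counts of called genes did not hold. In the members 1 gene rose and 1 fell. DESeq2 gave 4 and 23, no filter on low counts 74 and 120, and the replicate block 4 and 19. Library totals gave 2 that fell, a sum of at least 3 UMIs gave 2, a sum of at least 10 UMIs gave 3, and leaving out Scrublet calls gave 3, each with 1 that rose. With a ratio of 4, and with at most 5% mitochondrial UMIs, 0 rose and 3 fell. Of the alternatives chosen after seeing the data, leaving out the highest doublet scores and requiring 0 UMIs of 6 genes of other cells gave 0 and 0, and leaving out barcodes with 10 or more myelin UMIs gave 1 and 0. Without 1 library, 1 to 8 genes rose and 0 to 36 fell. Where the count was 0 and 0, edgeR had 787 of 13414 and 749 of 11980 genes at an unadjusted p under 0.05. In the main fit it had 873 of 13933. Slc7a8 kept its call in 12 of 17 alternatives (edgeR adjusted p from 2.18e-12 to 0.201). Mag kept its call in 11 of 14 (4e-52 to 0.861) and was not tested in the other 3, where too few UMIs were left. Alternatives that changed only the test, or left out 1 library, kept at least 1 of the NdpWT barcodes that held most Mag UMIs. They are therefore no independent support for Mag. Its call was lost without the barcodes of 10 or more myelin UMIs. The interaction, with 6 genes, gave 2 with library totals, 200 with no filter, 5 with DESeq2, of which 3 were among the 6, and 4 to 23 without 1 library. The difference in share stayed positive in 14 of 14 alternatives (0.245 to 9.09 points).

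The replicate numbers were not taken as pairs. The labels do not tie them to the litter match, and the deviations of same-numbered libraries had a correlation across genes of 0.194, over 2 pairs only. With the replicate block, 8 of the 10 genes next in order of p passed (all but Pla2g7 and Luzp2; edgeR adjusted p = 0.0131 to 0.0489). Library totals moved the median log2 difference of all genes from 0.00084 to -0.02 and changed the sign of 10 of 539 list genes. Where a library is left out, the lone library is assumed to vary like the other group. An alternative that allowed at most 1 UMI of 8 genes of other cells left 1, 0, 5 and 12 members and was not run.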
